A study of Mus musculus with 16 samples.

Results

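The 10 genes described here encode the 4 mouse Notch receptors (Notch1, Notch2, Notch3 and Notch4), the 5 membrane-bound ligands of the Jagged and Delta-like families (Jag1, Jag2, Dll1, Dll3 and Dll4) and Rbpj, the DNA-binding factor of the pathway. They were chosen by name from the 22367 protein-coding genes of the mouse annotation, and each was read for peaks within 3000 bp of any annotated transcript start and over the gene body. In Notch signalling a ligand on one cell binds a receptor on its neighbour, the receptor is cut, and its intracellular part enters the nucleus and joins RBPJ on DNA to switch on targets such as the Hes and Hey genes. In the skin this exchange between neighbouring cells is known for its part in keratinocyte differentiation and in keeping the hair follicle intact. DLL3 is an unusual ligand that acts inside the cell as an inhibitor, and Notch4 and Dll4 are best known from blood vessels.

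The values come from chromatin immunoprecipitation followed by sequencing (ChIP-seq) of 3 histone H3 marks, trimethylation of lysine 4 (H3K4me3), of lysine 27 (H3K27me3) and of lysine 9 (H3K9me3). As background, H3K4me3 is typical of active or poised gene starts, H3K27me3 is laid down by Polycomb complexes at silent developmental genes, and H3K9me3 is best known from heterochromatin. Cells were sorted from the skin of wild-type CD1 x FVB mice, all males by the labels while the study's methods name both sexes for most of its experiments, with no transgene or treatment in any group, and each preparation was pooled from several mice. EA-HFSCs are CD34+/α6-integrin+ bulge cells sorted at PD22 to PD25 (postnatal days), in early anagen, and LC-HFSCs are the same sort in late catagen, at PD38 to PD44. Non-EA-HFSCs and non-LC-HFSCs are the CD34-/α6-integrin+ cells of the same ages, a mixed fraction, mostly epidermis and lower outer root sheath, and not a single cell type. The 16 samples comprise 3 marks and an IgG control in each of the 4 populations. The authors pooled the reads of independent experiments and called peaks against IgG, which left 12 lists, 1 for each population and mark. No difference between populations therefore has a replicate check, no test was possible, and the read depth behind each peak is unknown from the lists. The lists differed in length. For H3K4me3 they held 21482 peaks in EA-HFSCs, 14718 in LC-HFSCs, 24498 in non-EA-HFSCs and 18996 in non-LC-HFSCs. For H3K27me3 the numbers were 25534, 1909, 17488 and 15273 in the same order, and for H3K9me3 42277, 1414, 17873 and 18236. The authors' score of a peak, the negative log10 of its p-value multiplied by 10, ranks peaks within 1 list only, because it depends on reads and background.

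The sort was checked on marker genes. Cd34, the gene of the sorted surface protein, had an H3K4me3 peak at a start in EA-HFSCs and LC-HFSCs and in neither CD34- population, which had an H3K27me3 peak there instead. The other 7 bulge markers (Itga6, Krt15, Sox9, Lhx2, Nfatc1, Tcf7l1 and Lgr5) had H3K4me3 in all 4 populations, so that at this mark Cd34 was the one marker of the 8 that separated the sorts. Sox9, Lhx2 and Lgr5 also had H3K27me3 in both CD34- populations and Tcf7l1 in non-LC-HFSCs. Of the 4 markers of differentiated keratinocytes, Krt10 and Lor had H3K4me3 in all 4 populations, Krt1 in both CD34- populations only and Ivl in none. Krt5, Krt14, Trp63 and Itgb4, markers of basal keratinocytes, had H3K4me3 in all 4 populations. Of the 5 endothelial markers, Kdr had H3K4me3 in all 4 populations, together with H3K27me3 in all 4, and Pecam1, Cdh5, Tek and Tie1 had no H3K4me3 peak in any. None of the 4 leukocyte markers (Ptprc, Cd3e, Cd74 and Itgam) had H3K4me3. Of the 4 fibroblast markers Col1a1 and Pdgfra had it in all 4 populations and Col3a1 and Lum in none. Col1a1 also had H3K27me3 in both CD34- populations and Pdgfra in all but LC-HFSCs. Of the 5 melanocyte markers Pmel and Mitf had H3K4me3 in all 4 populations, Dct in all but non-LC-HFSCs, and Tyr and Mlana in none. A peak list does not tell which cells of a sorted fraction carry a mark, or whether the 2 marks of a gene lie in the same cells.

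The sequence before the starts shows how far the genes differ. The lines give the 200 bases upstream of a coding start, 5′ to 3′ on the strand of the gene, read from NCBIM37 (mm9), with each CpG dinucleotide in capitals. They are Jag2 (chr12:114167707-114167906, minus strand), Jag1 (chr2:136942381-136942580, minus), Dll4 (chr2:119151320-119151519, plus), Dll3 (chr7:29087258-29087457, minus) and Notch4 (chr17:34701013-34701212, plus). They were chosen to set ligands with H3K4me3 and no H3K27me3 (Jag2 and Jag1) or with both marks (Dll4) beside Dll3 and Notch4. Dll3 and Notch4 had H3K27me3 within 3000 bp of a coding start and no H3K4me3 peak over a coding start. The Notch4 coding start itself lay under an H3K27me3 peak in non-EA-HFSCs only.
Jag2: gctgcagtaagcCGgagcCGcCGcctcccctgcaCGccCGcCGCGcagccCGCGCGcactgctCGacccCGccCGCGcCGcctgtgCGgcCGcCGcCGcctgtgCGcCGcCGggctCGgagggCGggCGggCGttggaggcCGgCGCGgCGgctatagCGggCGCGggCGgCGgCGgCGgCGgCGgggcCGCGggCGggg
Jag1: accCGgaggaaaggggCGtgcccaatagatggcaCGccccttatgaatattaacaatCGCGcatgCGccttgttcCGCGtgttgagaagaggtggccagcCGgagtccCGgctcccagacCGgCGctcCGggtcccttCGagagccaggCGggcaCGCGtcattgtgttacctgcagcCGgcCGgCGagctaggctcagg
Dll4: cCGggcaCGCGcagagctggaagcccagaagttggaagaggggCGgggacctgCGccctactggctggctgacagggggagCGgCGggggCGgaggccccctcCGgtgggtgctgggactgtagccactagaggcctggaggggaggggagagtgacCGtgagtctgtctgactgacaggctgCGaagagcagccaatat
Dll3: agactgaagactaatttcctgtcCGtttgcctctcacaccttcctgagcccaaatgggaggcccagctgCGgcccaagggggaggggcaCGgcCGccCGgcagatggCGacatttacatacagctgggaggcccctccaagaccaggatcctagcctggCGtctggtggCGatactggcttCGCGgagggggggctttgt
Notch4: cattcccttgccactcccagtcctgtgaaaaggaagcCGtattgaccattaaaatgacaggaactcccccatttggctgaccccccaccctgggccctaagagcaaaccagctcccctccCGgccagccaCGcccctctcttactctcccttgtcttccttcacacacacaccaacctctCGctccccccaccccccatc
These 200 bases hold 42 CpGs in Jag2, 20 in Jag1, 11 in Dll4, 10 in Dll3 and 4 in Notch4. An H3K4me3 peak overlapped the stretch of Jag2, Jag1 and Dll4 in all 4 populations and that of Dll3 and Notch4 in none. The genes shown were picked by their marks, so the order of their CpG counts is no result. An H3K27me3 peak overlapped the stretch of Dll4 in all 4 populations, that of Dll3 in 3 and that of Notch4 in 1. An H3K9me3 peak overlapped the stretches of Jag1 and Dll4 in EA-HFSCs.

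Over a longer window, all 16 coding starts of the 10 genes were ranked by the observed to expected CpG ratio over 500 bp to either side. The 7 starts that no H3K4me3 peak covered had ratios from 0.15 to 0.56, and the 7 starts covered in all 4 populations had ratios from 0.602 to 1.02. The remaining pair, Notch3 at 0.585 and Jag2 at 1.07, were covered in 3 populations. In non-LC-HFSCs the Notch3 peak ended 7 bp short of the start, and in non-EA-HFSCs the Jag2 start fell in the gap between a peak of 3761 bp and another of 1277 bp. Over all 46007 coding starts of protein-coding genes the median ratio was 0.541, it was 0.746 for the 23275 covered by H3K4me3 in all 4 populations and 0.217 for the 18654 covered in none, which is the same order as among the Notch genes. The rank is a description across starts that share the base composition of their gene. Windows of some starts of Notch1, Dll3 and Rbpj overlap, so that the starts are not separate sites and some sequence is counted more than once.

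**Figure D1:**
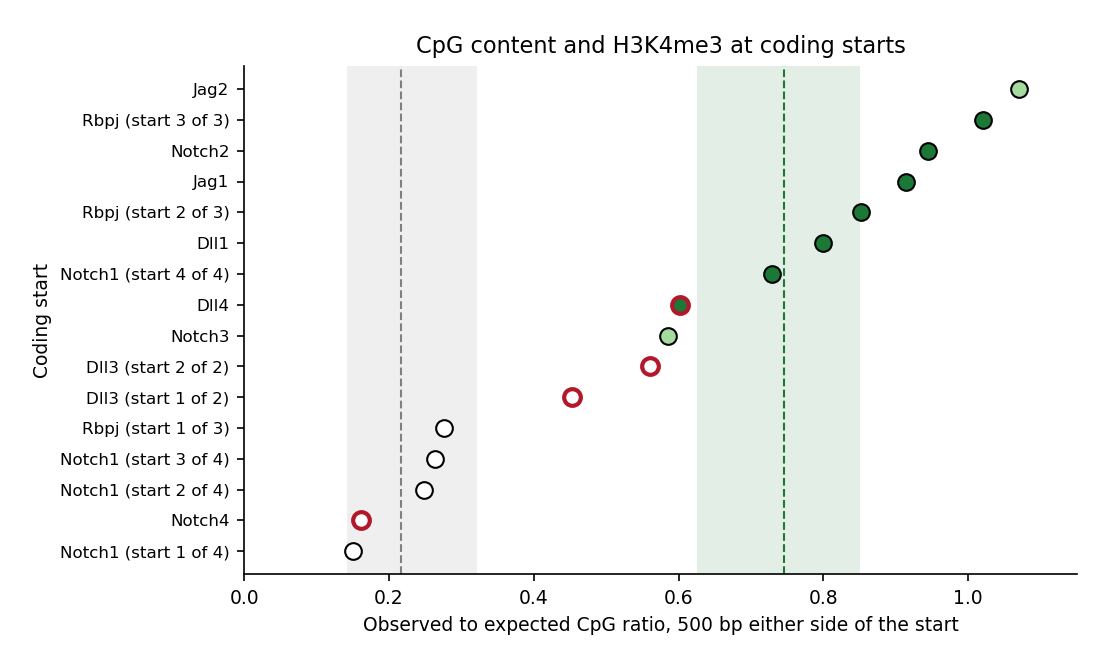
Observed to expected CpG ratio (x axis) of the 16 coding starts, 1 row each and numbered within a gene by the ratio. Dark fill marks a start under an H3K4me3 peak in all 4 populations, light fill in 3, no fill in none, and a red rim an H3K27me3 peak over the start in at least 1 population. Dashed lines and bands are the median and quartiles of all coding starts covered in all 4 populations (green, median 0.746) or in none (grey, 0.217). No unfilled start lies above 0.56.

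The core of the RBPJ binding motif, TGGGAA, was searched on both strands. It occurred within 250 bp upstream of 4 of the 16 coding starts, 3 of Notch1 and 1 of Rbpj, against 20.4% of all coding starts. Of the 3 Notch1 windows 2 largely overlap, so that most of their sequence is counted for both. Within 500 bp to either side it occurred at 12 of 16, against 59.6%, and there windows of Notch1, Dll3 and Rbpj overlap. A match is a run of letters and not a bound site.

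At any annotated start, all 10 genes had an H3K4me3 peak in each population. Over all protein-coding genes the share was 62.4% in EA-HFSCs, 55.9% in LC-HFSCs, 61.7% in non-EA-HFSCs and 58.8% in non-LC-HFSCs. For H3K27me3 the count was 3 of 10 in EA-HFSCs, 2 in LC-HFSCs and 3 in each of the others, and it was always Notch4 and Dll4, joined by Dll3 in all populations but LC-HFSCs. The background shares were 14.0%, 3.73%, 16.8% and 12.9% in the same order. For H3K9me3 the count was 6 of 10 in EA-HFSCs (Notch1, Notch2, Jag1, Dll1, Dll4 and Rbpj) and 0 in the 3 other populations, where the background was 47.9% in EA-HFSCs, 0.505% in LC-HFSCs, 4.14% in non-EA-HFSCs and 14.1% in non-LC-HFSCs. The 10 genes therefore fell into those with H3K4me3 and no H3K27me3 (Notch1, Notch2, Notch3, Jag1, Jag2, Dll1 and Rbpj) and those with H3K27me3 in at least 3 populations (Notch4, Dll3 and Dll4).

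**Figure D2:**
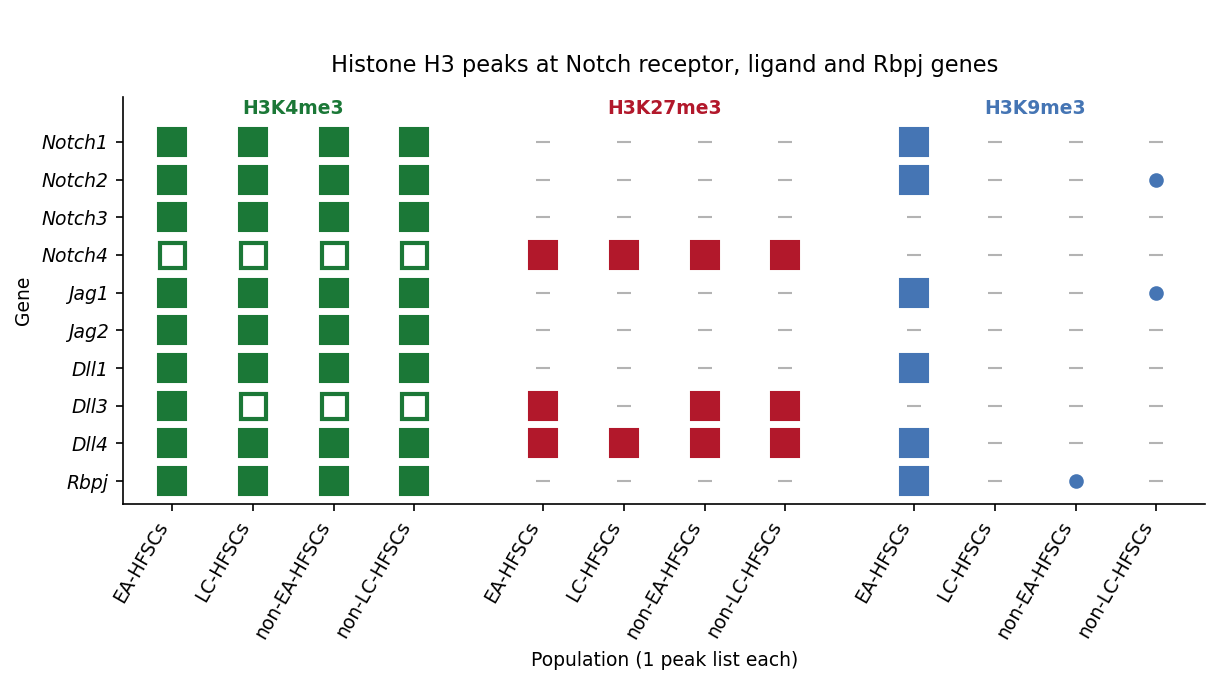
Peaks at the 10 genes (rows) in the 12 lists (columns, 1 per population and mark). A filled square is a peak within 3000 bp of a coding start and an open square one near a start of a non-coding transcript only. A dot is a peak in the gene body only and a dash none of these, and peaks farther out are not drawn. H3K27me3 is limited to Notch4, Dll3 and Dll4, H3K9me3 at starts to EA-HFSCs, and the H3K4me3 squares of Notch4 are all open.

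The count of 10 for H3K4me3 depended on which starts were taken. When the starts were limited to those of protein-coding transcripts, a choice made after the positions had been seen, H3K4me3 was present at 9 of 10 genes in EA-HFSCs and at 8 in each other population. The background was then 62.0%, 55.5%, 61.3% and 58.3%. Notch4 had none in any population and Dll3 had 1 in EA-HFSCs only. The H3K27me3 counts did not move with this choice, at 3, 2, 3 and 3 against backgrounds of 13.7%, 3.66%, 16.4% and 12.6%.

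Over the gene body the members gave the same counts for H3K4me3, 10 of 10 in each population, against 63.1% of genes in EA-HFSCs, 56.0% in LC-HFSCs, 62.2% in non-EA-HFSCs and 59.1% in non-LC-HFSCs. In LC-HFSCs Dll3 counted only through the edge of a peak over a start of its neighbour BC089491, and the count there was 9 with a score of at least 100 or with at least 50% of the peak within the gene. In non-LC-HFSCs it was 9 with a score of at least 100 or with lists of equal length. For H3K27me3 the members gave 3, 2, 3 and 3 against 14.7%, 3.81%, 17.0% and 13.4%. For H3K9me3 the body held peaks in 6 genes in EA-HFSCs, 0 in LC-HFSCs, 1 in non-EA-HFSCs (Rbpj) and 2 in non-LC-HFSCs (Notch2 and Jag1), against 51.1%, 1.46%, 13.4% and 22.2%.

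Among the receptors, Notch1, known in mouse skin as a tumour suppressor that drives keratinocyte differentiation, carried the widest H3K4me3 domain. The peak over its start was 8056 bp wide in EA-HFSCs (chr2:26354070-26362125), 6293 bp in LC-HFSCs, 6619 bp in non-EA-HFSCs and 6064 bp in non-LC-HFSCs. It was widest in EA-HFSCs, except that with peaks under 1 kb apart merged the non-EA-HFSC domain measured 11646 bp. Ranked by the widest H3K4me3 peak at a coding start, Notch1 stood at 288 of 13877 genes in EA-HFSCs, 256 of 12406 in LC-HFSCs, 243 of 13703 in non-EA-HFSCs and 173 of 13048 in non-LC-HFSCs. Of the 4 coding starts of Notch1 the peak covered that at 26359342, inside the annotated gene, whereas the starts at 26365177, 26372156 and 26372183 lay under no H3K4me3 peak. In non-EA-HFSCs 4 further peaks lay in its introns, from 725 to 2031 bp wide and with scores of at most 90.15, where the peak over the start scored 3100.

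At the Notch2 start the H3K4me3 peak measured 3114 bp in EA-HFSCs (chr3:97816314-97819427), 3237 bp in LC-HFSCs, 3086 bp in non-EA-HFSCs and 2551 bp in non-LC-HFSCs. Its width stood near the middle of all genes in EA-HFSCs, at rank 6949 of 13877. The ranks were higher elsewhere, at 3203 of 12406 in LC-HFSCs, 4346 of 13703 in non-EA-HFSCs and 5138 of 13048 in non-LC-HFSCs. Both CD34- populations had another H3K4me3 peak in an intron of Notch2, at 6542 bp from the start in non-EA-HFSCs (1929 bp) and 7509 bp in non-LC-HFSCs (1187 bp), which neither HFSC list held. Notch3 had the narrowest start peaks of the 3 receptors with H3K4me3 at a coding start, with 2713 bp in EA-HFSCs (chr17:32302038-32304750), 2165 bp in LC-HFSCs, 2456 bp in non-EA-HFSCs and 1855 bp in non-LC-HFSCs. A separate intronic peak of Notch3 lay in all 4 lists, 2949 bp wide in EA-HFSCs (chr17:32297944-32300892), 1617 bp in LC-HFSCs, 2283 bp in non-EA-HFSCs and 648 bp in non-LC-HFSCs. The intronic peak in EA-HFSCs reached to 2933 bp of the start and was wider than the peak over the start. Notch1, Notch2 and Notch3 had no H3K27me3 peak at a start or over the gene body in any population.

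Notch4 was the exception among the receptors. Its H3K27me3 peak measured 2281 bp in EA-HFSCs (chr17:34702393-34704673), 1382 bp in LC-HFSCs (chr17:34702860-34704241), 7099 bp in non-EA-HFSCs (chr17:34699568-34706666) and 3562 bp in non-LC-HFSCs (chr17:34702225-34705786). The peaks of the CD34- populations were thus 3.11 times as wide at early anagen and 2.58 times as wide at late catagen, where over all genes with H3K27me3 in both lists the median ratios were 1.31 and 1.35. Only the non-EA-HFSC peak covered the coding start at 34701213, and in the other lists the peak began 1012 to 1647 bp inside the gene. The LC-HFSC peak had a score of 45.91, close to the lowest score of its list, 40.01. All H3K4me3 peaks of Notch4 lay at the other end of the gene, at chr17:34722812-34726260 in EA-HFSCs and 21599 to 22260 bp past the coding start in the 4 lists. They covered starts of short non-coding transcripts of Notch4 and lay within 3000 bp of starts of the neighbouring genes Gpsm3 and Pbx2. The coding start of Notch4 had a CpG ratio of 0.162, with only 13.8% of all coding starts below it.

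Among the ligands, Jag1, known from the hair follicle and the suprabasal epidermis, had the widest single H3K4me3 peak of all 10 genes in each population, although with peaks under 1 kb apart merged Notch1 was wider in non-EA-HFSCs, at 11646 bp. The Jag1 peak spanned 10790 bp in EA-HFSCs (chr2:136933350-136944139), 9082 bp in LC-HFSCs, 11081 bp in non-EA-HFSCs and 7156 bp in non-LC-HFSCs. By width Jag1 stood at rank 96 of 13877 genes in EA-HFSCs, 54 of 12406 in LC-HFSCs, 39 of 13703 in non-EA-HFSCs and 93 of 13048 in non-LC-HFSCs, so that it was among the widest 0.713% of genes in each population. The domain extended mostly into the gene and in non-LC-HFSCs a separate peak of 1410 bp followed it. Jag2 had 5905 bp in EA-HFSCs (chr12:114163880-114169784), 4875 bp in LC-HFSCs, 3761 bp in non-EA-HFSCs and 3967 bp in non-LC-HFSCs. In all but EA-HFSCs an intronic peak of 1181 to 2220 bp lay 4283 to 4331 bp inside the gene, close behind the start peak. The single peaks were wider in both HFSC populations than in both CD34- populations, but with peaks under 1 kb apart merged the widths were 5905, 6734, 7916 and 5650 bp and this order was lost.

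Dll1, known from basal keratinocytes, had 6306 bp in EA-HFSCs (chr17:15509171-15515476), 4790 bp in LC-HFSCs, 6357 bp in non-EA-HFSCs and 6662 bp in non-LC-HFSCs. LC-HFSCs had the narrowest domain. Upstream of Dll1 another H3K4me3 peak lay in all 4 populations, 2970 bp wide in EA-HFSCs, 2317 bp in LC-HFSCs, 2346 bp in non-EA-HFSCs and 1709 bp in non-LC-HFSCs. In EA-HFSCs and non-LC-HFSCs it began 3091 and 3144 bp from the nearest start, just past the window of 3000 bp, and in the others at 2628 and 2570 bp, just within it, so its presence in the window differs between populations by position only. Jag1, Jag2 and Dll1 had no H3K27me3 peak at a start or in the gene body in any population.

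Dll4 carried both marks in every population. Its H3K4me3 peak over the start was 4100 bp wide in EA-HFSCs (chr2:119150061-119154160), 3409 bp in LC-HFSCs, 3141 bp in non-EA-HFSCs and 3104 bp in non-LC-HFSCs. A further H3K4me3 peak lay upstream, of 1670 bp in EA-HFSCs (chr2:119147306-119148975) and 1076 bp in non-EA-HFSCs (chr2:119147691-119148766). Its H3K27me3 peak was 7634 bp in EA-HFSCs (chr2:119145076-119152709), 6893 bp in LC-HFSCs (chr2:119145769-119152661), 14284 bp in non-EA-HFSCs (chr2:119145016-119159299) and 10056 bp in non-LC-HFSCs (chr2:119145513-119155568). These peaks began 5751 to 6504 bp before the start in the 4 lists and ended inside the gene, 1189 bp past the start in EA-HFSCs, 1141 bp in LC-HFSCs, 7779 bp in non-EA-HFSCs and 4048 bp in non-LC-HFSCs. In EA-HFSCs another peak of 2727 bp followed after a gap of 270 bp. Farther upstream, outside the window of 3000 bp, a further H3K27me3 peak of 6884 bp (chr2:119138077-119144960) lay next to the domain of non-EA-HFSCs and one of 1987 bp (chr2:119141539-119143525) before that of non-LC-HFSCs. Summed over the peaks of both marks at the start, the bases under both came to 5500 in EA-HFSCs, 2477 in LC-HFSCs, 4217 in non-EA-HFSCs and 3104 in non-LC-HFSCs. In both CD34- populations these were all the bases under H3K4me3 at the start. The scores of the H3K27me3 peaks over the start were 1379.4 in EA-HFSCs, 95.84 in LC-HFSCs, 570.77 in non-EA-HFSCs and 844.84 in non-LC-HFSCs, and cannot be compared between lists.

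Dll3 had H3K27me3 at its coding starts in 3 populations. The peak was 3431 bp wide in EA-HFSCs (chr7:29084177-29087607) and 4967 bp in non-EA-HFSCs (chr7:29084089-29089055). In non-LC-HFSCs the domain was split into peaks of 596 and 2197 bp with scores of 45.12 and 48.41, and LC-HFSCs had none. Its H3K4me3 lay elsewhere. A peak at chr7:29075019-29076817 in EA-HFSCs, present in all 4 lists, lay over a start of the neighbouring gene BC089491 and mostly beyond the 3′ end of Dll3, at 29076673 on the minus strand. It reached a little way into Dll3 in all lists but that of non-LC-HFSCs. Another peak at chr7:29078575-29080608 lay over an internal non-coding start in EA-HFSCs and non-EA-HFSCs, and 163 bp from it in non-LC-HFSCs. Near the coding starts the only H3K4me3 peak was 793 bp wide, in EA-HFSCs, with a score of 51.98, where the lowest score of the list was 50. It shared 250 bp with the H3K27me3 peak.

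**Figure D3:**
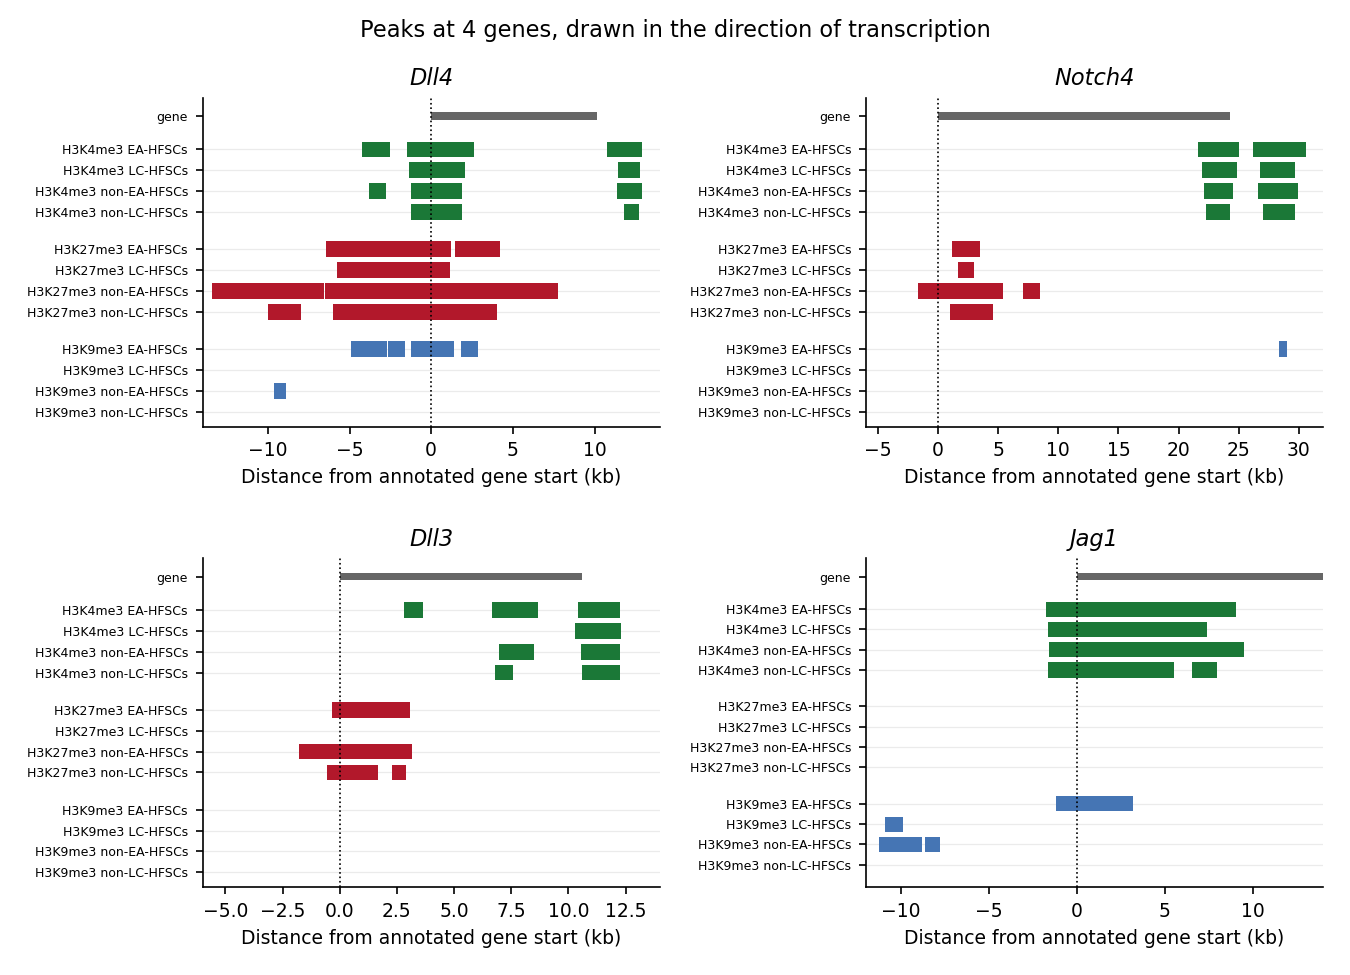
Peaks at Dll4, Notch4, Dll3 and Jag1 in the 12 lists (rows), drawn by distance from the annotated gene start in kb with transcription to the right. Bars are H3K4me3 (green), H3K27me3 (red) and H3K9me3 (blue) peaks up to 10000 bp beyond the gene, and the grey bar is the gene, cut at the edge for Jag1. At Dll4 green and red overlap at the start, at Notch4 they lie at opposite ends of the gene, and Jag1 has no red bar.

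The 3 genes counted as carrying H3K4me3 and H3K27me3 at any start were thus unlike each other. The count was 3 of 10 in EA-HFSCs, 2 in LC-HFSCs and 3 in each CD34- population, against 8.89%, 1.30%, 10.8% and 6.60% of all genes. At coding starts, or at the gene start alone, it was 2 in EA-HFSCs, 1 in LC-HFSCs and 1 in each CD34- population, and with a score of at least 100 it was 0 in LC-HFSCs. The shares of all genes are for any start at the authors' thresholds, so these lower counts have no background here. Both marks shared bases at Dll4 in all 4 populations and at Dll3 in EA-HFSCs, and at Notch4 they shared 0 bp in every population.

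Rbpj, through which all 4 receptors act on DNA, had H3K4me3 over 5116 bp in EA-HFSCs (chr5:53979287-53984402), 4469 bp in LC-HFSCs, 3956 bp in non-EA-HFSCs and 3628 bp in non-LC-HFSCs. The peak covered the coding starts at 53981454 and 53981813, and the annotated gene start at 53947018 lay under no peak of any mark. The CpG ratios of these starts were 0.852, 1.02 and 0.276. Rbpj had no H3K27me3 peak in any population.

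The widths were compared between stages and sorts over the 8 genes with H3K4me3 at a coding start in all 4 populations. From EA-HFSCs to LC-HFSCs the widest peak was narrower in 7 of 8, with a median ratio of 0.829, and Notch2 was the exception at 1.04. Over all genes with a peak in both lists 89.6% were narrower, with a median of 0.823 and quartiles of 0.719 and 0.922, so the share and the median of the Notch genes lay near the background. With peaks under 1 kb apart merged, Jag2 went from 5905 to 6734 bp. The widest peak was then narrower in 6 of 8 genes, with a median ratio of 0.806. From non-EA-HFSCs to non-LC-HFSCs it was narrower in 6 of 8, with a median ratio of 0.917, against 79.8% and 0.89 over all genes. Jag2 and Dll1 were the exceptions, both at 1.05, and the ratio of Jag1 was 0.646. With peaks under 1 kb apart merged, Notch1 went from 11646 to 6064 bp, Jag1 from 11081 to 7156 bp and Jag2 from 7916 to 5650 bp. Jag2 was then no exception, and the peak was narrower in 7 of 8 genes, with a median ratio of 0.791. Between the sorts, which share these lists, the peak was narrower in non-EA-HFSCs than in EA-HFSCs at 6 of 8 genes, with a median ratio of 0.827, against 83.0% and 0.841 over all genes. Jag1 (1.03) and Dll1 (1.01) were the exceptions, and after merging it was narrower at 4 of 8, with a median ratio of 1. For Notch3 the widest peak was the intronic one in EA-HFSCs, at 2949 bp, and the one at the start in the other lists. With a window of 1000 bp, which left the intronic peak out, the median ratio was 0.863, with 6 of 8 narrower. The H3K4me3 shares and medians over all genes are for 3000 bp and peaks without merging, so the merged and 1000 bp values have no background here. In non-LC-HFSCs the peak was narrower than in LC-HFSCs at 7 of 8 genes, with a median ratio of 0.835, against 73.4% and 0.923 over all genes, and Dll1 was the exception at 1.39. The median width over the Notch genes stood above that of all genes in each list, while Notch3 lay below it in all 4, Notch2 just below it and Dll3 far below it in EA-HFSCs. It was 5116 bp over 9 genes in EA-HFSCs, where the median gene had 3118 bp, 4629.5 against 2582 bp in LC-HFSCs, 3858.5 against 2567 bp in non-EA-HFSCs and 3797.5 against 2319 bp in non-LC-HFSCs. For H3K27me3, Dll4 and Notch4 narrowed from EA-HFSCs to LC-HFSCs, by ratios of 0.903 and 0.606 against a median of 0.564, and from non-EA-HFSCs to non-LC-HFSCs the ratios were 0.704 for Dll4, 0.502 for Notch4 and 0.442 for Dll3 against a median of 0.526. With H3K27me3 peaks under 1 kb apart merged, the first pair was 0.648 for Dll4 and 0.606 for Notch4 against a median of 0.449, and the later ratios were 0.474, 0.502 and 0.693 against 0.626, so that Dll4 and Dll3 changed sides of the median.

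**Figure D4:**
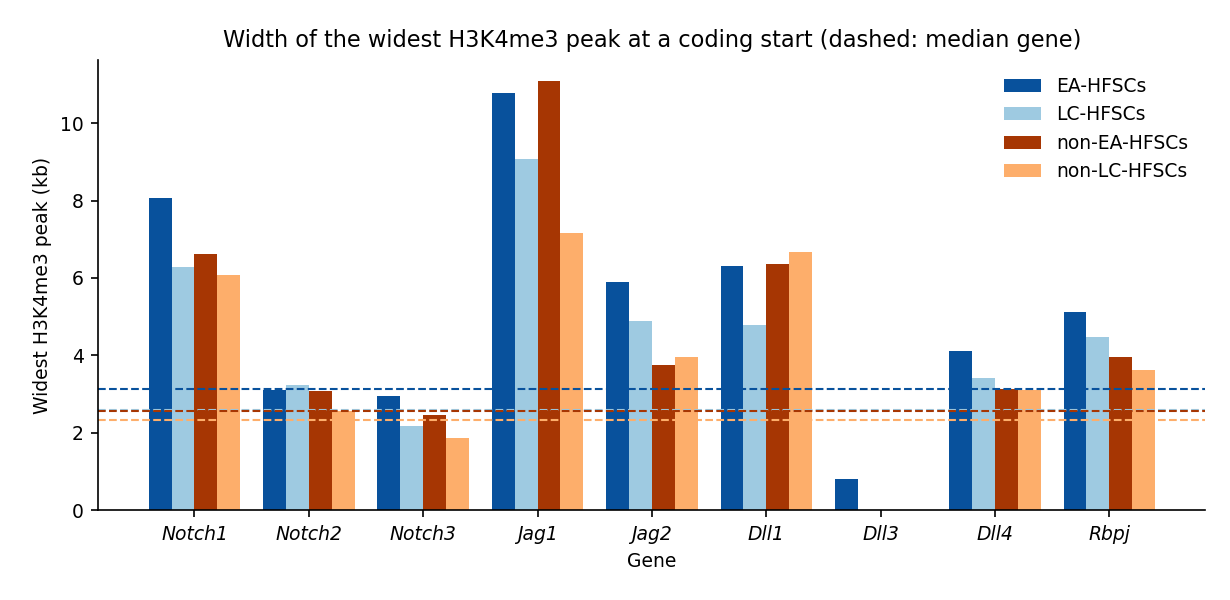
Width in kb of the widest H3K4me3 peak within 3000 bp of a coding start (y axis) for the 9 genes with any such peak (x axis), 1 bar per population and 1 list per bar, without error. Dashed lines are the median over all genes with a peak in that population. Jag1 and Notch1 stand well above the median in each population, and Notch3 near or below it. The EA-HFSC bar of Notch3 is its intronic peak and not the one over the start.

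Losses between the stages were counted at any start. From EA-HFSCs to LC-HFSCs none of the 10 genes lost H3K4me3, against 10.7% of the genes that had it. Dll3 counted in LC-HFSCs only through the peak over a BC089491 start, and 1 gene, Dll3, was lost with a window of 1000 bp, the gene start alone, at least 50% of the peak within the window or coding starts only, and 2, Dll3 and Notch3, with a score of at least 100. Dll3 lost H3K27me3, 1 of 3, against 73.9%. All 6 genes with H3K9me3 lost it, against 99.2%, and all 6 also lacked it in non-EA-HFSCs, against 94.4% of all genes with the mark in EA-HFSCs. Outside the window, H3K9me3 peaks lay upstream of Jag1 in LC-HFSCs (1061 bp wide, 9855 bp from the start) and in non-EA-HFSCs (870 and 2444 bp wide). Dll4 had flanking H3K9me3 peaks of 748 and 759 bp in non-EA-HFSCs. From non-EA-HFSCs to non-LC-HFSCs 0 of 10 lost H3K4me3, against 5.39%, and 0 of 3 lost H3K27me3, against 28.8%. The LC-HFSC lists of H3K27me3 and H3K9me3 were the shortest of their marks. When each list was cut to its 1909 top-scoring H3K27me3 peaks, Dll4 kept the mark in all 4 populations, Notch4 in LC-HFSCs and non-LC-HFSCs only and Dll3 in none, and 0 of the genes lost it from EA-HFSCs to LC-HFSCs. With 1414 top-scoring H3K9me3 peaks in each list, only Jag1 had the mark, in EA-HFSCs.

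H3K9me3 and H3K4me3 overlapped at the starts in EA-HFSCs. At the starts of the 6 genes there were 11 peaks, of which all 11 touched an H3K4me3 peak of the same population and 8 lay wholly within one. Over all H3K9me3 peaks at starts of genes that had H3K4me3 there, 84.7% touched an H3K4me3 peak and 74.7% lay wholly within one. Away from the starts, a peak in the Notch2 body (chr3:97844874-97845554, score 79.59), 27413 bp from the start, lay off H3K4me3. The widest were 4370 bp at Jag1 (chr2:136939191-136943560, score 231.61) and 3456 bp at Notch1 (chr2:26356506-26359961, score 97.86). Dll4 had 4 peaks, of 2203, 1068, 2636 and 986 bp, that shared from 93.1 to 100% of their bases with H3K27me3. Dll1 had peaks of 1789 and 1082 bp, Rbpj of 1857 and 983 bp, and Notch2 1 of 1622 bp with a score of 41.1. Notch3, Notch4, Jag2 and Dll3 had no H3K9me3 peak at a start in any population. Whether the overlap comes from the chromatin or from shared signal of the libraries was not tested.

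Genes with a like pattern were sought over the 12 lists. The presence pattern of Notch1, Notch2, Jag1, Dll1 and Rbpj, H3K4me3 in all 4 populations with H3K9me3 in EA-HFSCs alone, was shared by 5669 genes (25.3%), and that of Notch3 and Jag2, H3K4me3 alone, by 2508 (11.2%). The patterns of the others were less common, at 146 genes for Dll4, 79 for Dll3 and 14 for Notch4. By the summed absolute difference in percent cover within 3000 bp of the gene start over the 12 lists, the closest gene was Tpp2 for Notch2 (6.5 percentage points), Hsd17b7 for Notch3 (3.32), Etv6 for Jag2 (11.5), Mllt11 for Dll1 (12.9), Cpt1a for Jag1 (14.6), Csrnp3 for Dll3 (16.7), Gsx1 for Dll4 (17.7) and Tdrd7 for Notch4 (32.3). Notch1 and Rbpj had no cover at their annotated gene start, so no gene could be singled out for them.

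The other 46 genes of the pathway were read in the same way, by role. An H3K4me3 peak at a start was found in 42 of 46 in EA-HFSCs and non-EA-HFSCs (91.3%) and in 39 of 46 in LC-HFSCs and non-LC-HFSCs (84.8%). Of all protein-coding genes 62.4% had such a peak in EA-HFSCs, 61.7% in non-EA-HFSCs, 55.9% in LC-HFSCs and 58.8% in non-LC-HFSCs. All 10 genes of receptor cleavage, such as the γ-secretase subunits, had it in every population, as did the 4 nuclear co-repressors and the 4 genes of ligand uptake. It was absent in all populations from Mfng, a sugar transferase of the receptors, Maml2, a co-activator, and Dner, a non-canonical ligand. Dtx1 had it in non-EA-HFSCs only (791 bp), Dlk1 in EA-HFSCs only (1442 bp), and Heyl and Rbpjl in both early anagen populations and neither late catagen population. From EA-HFSCs to LC-HFSCs 3 of 42 pathway genes lost H3K4me3, 6 of 11 H3K27me3 and 37 of 37 H3K9me3, against 10.7%, 73.9% and 99.2% of all genes with the mark.

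H3K27me3 was found at 13 of the 46 genes in at least 1 population, with 11 in EA-HFSCs, 5 in LC-HFSCs, 13 in non-EA-HFSCs and 11 in non-LC-HFSCs. By population the mark lay at 23.9%, 10.9%, 28.3% and 23.9% of the 46, against 14.0%, 3.73%, 16.8% and 12.9% of all protein-coding genes. Among the 5 target genes, Hes1 had none and had the widest H3K4me3 peak of the targets, 9018 bp in EA-HFSCs, 8889 bp in LC-HFSCs, 8020 bp in non-EA-HFSCs and 6881 bp in non-LC-HFSCs. Hes5, Hey1, Hey2 and Heyl had H3K27me3 in EA-HFSCs and in both CD34- populations. The H3K27me3 peak of Hey2 was 10665 bp in EA-HFSCs, 5937 bp in LC-HFSCs, 11181 bp in non-EA-HFSCs and 6354 bp in non-LC-HFSCs, and that of Heyl 5203, 3293, 12072 and 6873 bp. Hes5, with 5340 bp in EA-HFSCs, 6488 bp in non-EA-HFSCs and 3478 bp in non-LC-HFSCs, and Hey1, with 1662, 3336 and 2538 bp, had no peak in LC-HFSCs.

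Dlk1, a non-canonical ligand and imprinted gene, had the widest H3K27me3 peak of the 46 genes, 16950 bp in non-EA-HFSCs, with 10561 bp in EA-HFSCs, 2043 bp in LC-HFSCs and 14575 bp in non-LC-HFSCs. Dtx1, a Deltex ubiquitin ligase, had 11209, 5604, 12163 and 7475 bp in EA-HFSCs, in LC-HFSCs and in their non-EA and non-LC counterparts. Neurl1a, which acts in ligand uptake, was the remaining gene with the mark in all 4. Rbpjl, a relative of Rbpj, had H3K27me3 of 8126 bp in EA-HFSCs, 9004 bp in non-EA-HFSCs and 9867 bp in non-LC-HFSCs and none in LC-HFSCs, whereas Rbpj had none. Dner and Poglut1 likewise had it in all but LC-HFSCs, Dtx4 in both early anagen populations, Mib2 in both CD34- populations and Psen2 in non-EA-HFSCs. The nuclear co-activators and co-repressors had none.

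H3K9me3 was found at 37 of the 46 pathway genes in EA-HFSCs (80.4%), 0 in LC-HFSCs, 2 in non-EA-HFSCs (4.35%) and 4 in non-LC-HFSCs (8.7%). Over all protein-coding genes the shares were 47.9%, 0.505%, 4.14% and 14.1% in the same order. Of the 46 genes, 32 had H3K9me3 in EA-HFSCs alone. The 5 target genes all had it in EA-HFSCs and in no other population. This was common, since of all genes with the mark in EA-HFSCs 99.2% lacked it in LC-HFSCs and 94.4% in non-EA-HFSCs. The share of all genes with H3K9me3 in EA-HFSCs alone was not counted.

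**Figure D5:**
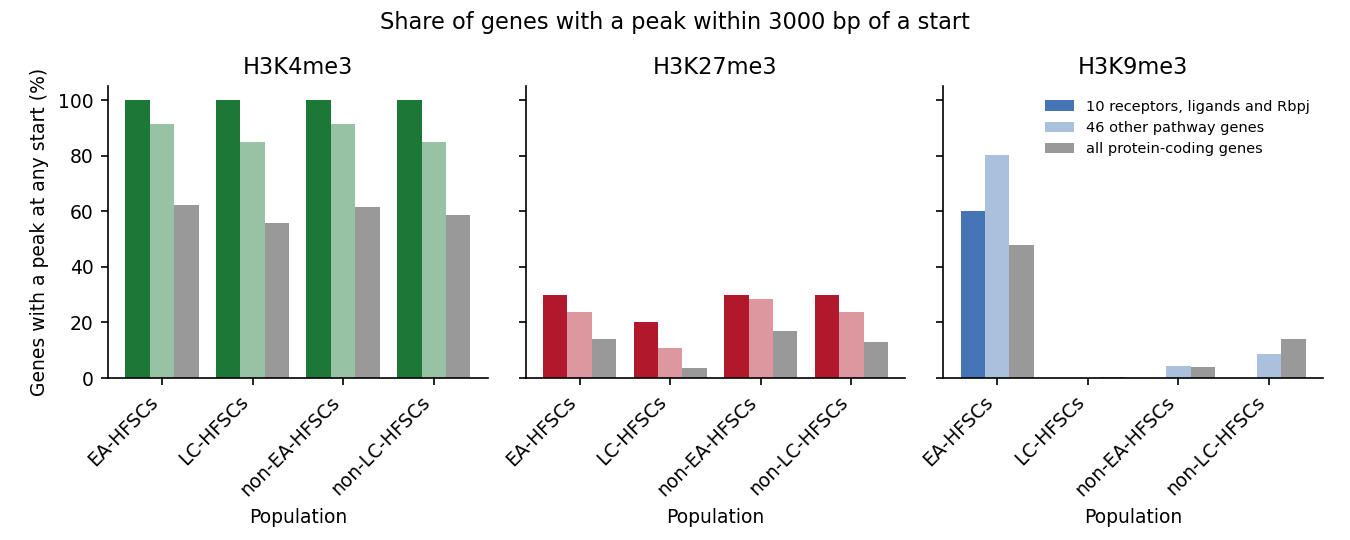
Percent of genes with a peak within 3000 bp of any start (y axis) by population (x axis) and mark (panels), for the 10 receptor, ligand and Rbpj genes, the 46 other pathway genes and all 22367 protein-coding genes. H3K4me3 is at 100% of the 10 genes in each population, H3K27me3 at 20 or 30%, and H3K9me3 at 60% in EA-HFSCs and at 0 in the others.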

How the data were processed

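The authors trimmed single-end reads (Trimmomatic 0.22), aligned them to mm9 with Bowtie2, pooled independent experiments and ran MACS 1.4 with the matching IgG reads as control. The deposited lists hold positions and a score per peak, the negative log10 of the MACS p-value multiplied by 10. The lowest deposited score of the H3K4me3 lists is 50, a p-value of 1e-05, and of the other lists 40, a p-value of 0.0001. Depth per list is not part of the lists, so its effect on peak number and width could not be corrected.

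Starts were converted to 1-based positions. The NCBIM37 genome (mm9) and GENCODE vM1 were used, and 0 of 219698 peaks ran past the end of their chromosome, where 733 peaks outside chromosomes 1 to 19, X and Y took no part in gene counts. A gene was counted when a peak shared at least 1 bp with the 3000 bp to either side of an annotated start, or with the gene body. Counts, widths and cover were computed with Python 3.11.15 and numpy 2.4.6. The overlap step was tested on simulated data, 5000 peaks, and gave the exact answer, the same as bedtools 2.31.1, in 4 of 4 settings. The gene start was the 5′ end of the annotated gene, and a coding start that of a protein-coding transcript. The IgG samples were not analysed here.

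The members, the pathway and marker lists and the alternatives were chosen with earlier results of these data known. Named were all 10 members and, of the 46 other pathway genes, the target genes and those with H3K27me3 at a start in any population or H3K4me3 in 1 to 3 populations; Mfng and Maml2, with no peak, were named after their values were seen. All results are descriptions of 1 list per population and mark. Alternatives were score thresholds, a narrower window, the gene start only, a larger overlap, merged peaks, lists of equal length and, added after seeing the data, coding starts.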

Additional observations from a re-analysis of the deposited data

Results flagged for a closer look

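Some values moved one way from EA-HFSCs to LC-HFSCs and the opposite way from non-EA-HFSCs to non-LC-HFSCs. With 1 list per population these differences were not tested. The widest H3K4me3 peak at the Notch2 start was 123 bp wider in LC-HFSCs than in EA-HFSCs, and the non-LC-HFSC minus non-EA-HFSC difference was -535 bp. At Jag2 the difference was -1030 bp in the HFSCs and 206 bp in the CD34- cells, and at Dll1 it was -1516 bp and 305 bp. At Jag2 the non-EA-HFSC domain was split by a gap over the start, and with peaks under 1 kb apart merged the widths were 5905 and 6734 bp in EA- and LC-HFSCs and 7916 and 5650 bp in their CD34- counterparts, so that both directions turned. The number of H3K9me3 peaks over the Notch2 gene body changed by -2 in the HFSCs and by 2 in the CD34- cells, and over Jag1 by -1 and 1. These peaks were not at the same places, since those of EA-HFSCs included the start and those of non-LC-HFSCs lay in introns, at least 25645 bp from a coding start and with scores of at most 90.34. The number of H3K27me3 peaks over Dll3 changed by -1 in the HFSCs and by 1 in the CD34- cells, where a peak of 4967 bp in non-EA-HFSCs stood against peaks of 596 and 2197 bp in non-LC-HFSCs.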

How the results depend on the processing

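No paired analysis was possible because each population and mark has 1 list, and for the same reason no list was left out. By the study's methods the LC-HFSC lists rest on more reads than the EA-HFSC lists. With 1 list each, list length cannot be told apart from the population, and absence of a peak means only that none passed the authors' threshold. Of 332 counts recomputed under the alternatives, 273 stayed within 1.5 times of the reported count and 59 moved; the cause was not tested, except that stricter settings leave fewer peaks. Counts are of the 10 genes at any start unless said otherwise, and of the other pathway genes where named.

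With a score of at least 50, H3K27me3 in LC-HFSCs fell to 1 at starts and 1 over gene bodies and both marks in LC-HFSCs to 1, H3K27me3 losses rose to 2 from EA-HFSCs to LC-HFSCs and to 1 from non-EA-HFSCs to non-LC-HFSCs, body H3K9me3 in non-LC-HFSCs fell to 1, and pathway H3K9me3 in non-EA-HFSCs to 1. With a score of at least 100, H3K27me3 and both marks in LC-HFSCs fell to 0, at starts and over bodies, and pathway H3K27me3 there to 1. H3K9me3 in EA-HFSCs fell to 3 at starts, 3 over bodies and 13 pathway genes, its losses to 3, and in the CD34- populations body and pathway H3K9me3 fell to 0. Losses from EA-HFSCs to LC-HFSCs became 2 for H3K4me3 (Notch3 and Dll3) and 2 for H3K27me3, those from non-EA-HFSCs to non-LC-HFSCs 1 for H3K27me3, and the median H3K4me3 width became 5510.5 bp in EA-HFSCs and in LC-HFSCs 4790 bp.

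With the annotated gene start only, H3K4me3 fell to 6 in all populations but EA-HFSCs, with 1 loss from EA-HFSCs to LC-HFSCs (Dll3). Both marks fell to 1 in the same 3 populations, pathway H3K27me3 in LC-HFSCs to 3, pathway H3K9me3 in non-EA-HFSCs to 1, and the median widths to 4100 and 4099.5 bp in EA- and LC-HFSCs and 3451 and 3535.5 bp in their CD34- counterparts. With starts of protein-coding transcripts, chosen after seeing the data, both marks likewise fell to 1 in the same 3 populations, with 1 H3K4me3 loss from EA-HFSCs to LC-HFSCs and pathway H3K9me3 of 1 in non-EA-HFSCs. A window of 1000 bp gave 1 H3K4me3 loss from EA-HFSCs to LC-HFSCs, pathway H3K9me3 of 1 in non-EA-HFSCs and a median width of 5510.5 bp in EA-HFSCs. Requiring at least 50% of the peak within gave 1 such loss, 1 body H3K27me3 gene in LC-HFSCs, pathway H3K9me3 of 1 in non-EA-HFSCs and median widths of 4608 bp in EA-HFSCs and 3761 bp in non-EA-HFSCs. Merging peaks under 1 kb apart gave medians of 5905 bp in EA-HFSCs, 5156.5 bp in non-EA-HFSCs and 4639 bp in non-LC-HFSCs, and moved no count by more than 1.5 times.

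With all lists of a mark cut to equal length by score, H3K27me3 fell to 1 in EA-HFSCs and non-EA-HFSCs at starts, over bodies and together with H3K4me3, and its losses from EA-HFSCs to LC-HFSCs to 0. Pathway H3K27me3 fell to 5 in EA-HFSCs, 5 in non-EA-HFSCs and 4 in non-LC-HFSCs. H3K9me3 in EA-HFSCs fell to 1 at starts, over bodies and in the pathway, with 1 loss, over bodies to 0 in non-EA-HFSCs and 1 in non-LC-HFSCs, and in the pathway to 0 in both, and the median H3K4me3 width in EA-HFSCs was 5510.5 bp. The share of genes with a narrower H3K4me3 peak was 6 of 8 from EA-HFSCs to LC-HFSCs and 7 of 8 from non-EA-HFSCs to non-LC-HFSCs after merging, against 7 and 6 of 8.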
